A study of Setaria viridis with 26 samples.

Results

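Nucleosome genes of *Setaria viridis*, a small C4 grass used as a model for cereal panicles, were described in the co-expression network of its wild-type inflorescence. They were taken as every gene that the GO annotation assigns to the cellular component term "nucleosome", without assignments marked NOT, and that is also a node of the network. The term was assigned to 131 genes, of which 98 were among the 25298 network genes and 33 were not. The series holds poly-A RNA-seq of pooled, hand-dissected inflorescence primordia of cultivar A10.1, with 12 samples of the *ful2* mutant (9 to 10, 15 and 21 days after sowing, DAS) and 12 of the wild-type (8 to 9, 10 to 11 and 17 DAS), 4 replicates per stage, and 2 DNA samples of the mutant. The mutant carries the chemically induced *brl1-ref* allele of *SvFul2*, and all RNA came from plants grown in short days. The network was built from wild-type primordia alone, those of this study together with 23 samples of an earlier one between 10 and 18 DAS, so no mutant value enters what follows.

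A nucleosome is the unit of chromatin, in which DNA is wrapped around an octamer of the core histones H2A, H2B, H3 and H4, while linker histone H1 binds the DNA where it enters and leaves. Histones that package newly copied DNA are made mainly in S phase, together with the replication machinery, so their transcripts mark dividing cells in a meristem. Replacement variants such as H3.3 and H2A.Z are made throughout the cell cycle and are exchanged into chromatin without replication.

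Each edge of the network joins a pair of genes and carries a topological overlap weight, a score without a unit that is high when the genes rise and fall together across the wild-type samples and share neighbours. Pairs below 0.02 are not listed, so an unlisted pair has an unknown weight under this minimum. Of all 319981753 gene pairs, 43548751 were listed, and their median weight was 0.0412. A gene was linked to a median of 3069 others, which is 12.1% of the network. Each weight is 1 value over all samples and has no replicate error, so shares are given beside those of the whole network and no test was made. Genes are not replicates. Many histone genes are near-identical copies, and how reads were split among such copies by the quantification is uncertain.

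The annotation was first checked for histone signatures among the protein domains and best matches that it cites. Of the 98 genes, 52 cited a histone signature and 46 cited none. There were 39 core histone genes, namely 13 H2A, 4 H2B, 15 H3 and 7 H4, and another 13 genes cited the domain of linker histones H1 and H5. Among the 46 genes without a signature, 30 cited something else and 16 cited nothing. The cited domains included the SNF2 ATPase of chromatin remodelers in 3 genes and the NB-ARC domain of plant immune receptors in 2. The GO term for an integral membrane component was assigned to 28 of the 46 genes without a signature and to 0 of the 52 with one. The term for nucleosome assembly was assigned to 12 of the 46 and to 51 of the 52. The 46 genes are described apart as genes without a histone signature. The 52 are not all histones either, since some linker-domain genes had best matches to other DNA-binding proteins.

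The 98 genes were spread over 20 of the 26 modules, the groups of co-expressed genes that the authors named by colors. Turquoise held 15 of them among 3909 genes, which is 0.991 times the number in proportion to its size. Grey60 held 14 among only 376 genes, 3.72% of that module and 9.61 times the number in proportion to size. Of the 39 core histone genes, 13 were in grey60 (22.4 times in proportion to size), 10 in turquoise, 6 in salmon and 4 in yellow. The grey60 genes were 5 H2A, 3 H2B and 5 H3 genes, with none of the 7 H4 genes. Of the H4 genes, 5 were in turquoise and 2 in yellow. Salmon held 2 H2A, 1 H2B and 3 H3 genes. Blue held 4 genes with the linker domain and 5 without a signature, but none of the core histone genes, and the 5 genes of black were without a signature. Midnightblue, lightgreen, lightyellow, royalblue, darkred and darkorange held none of the 98.

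**Figure D1:**
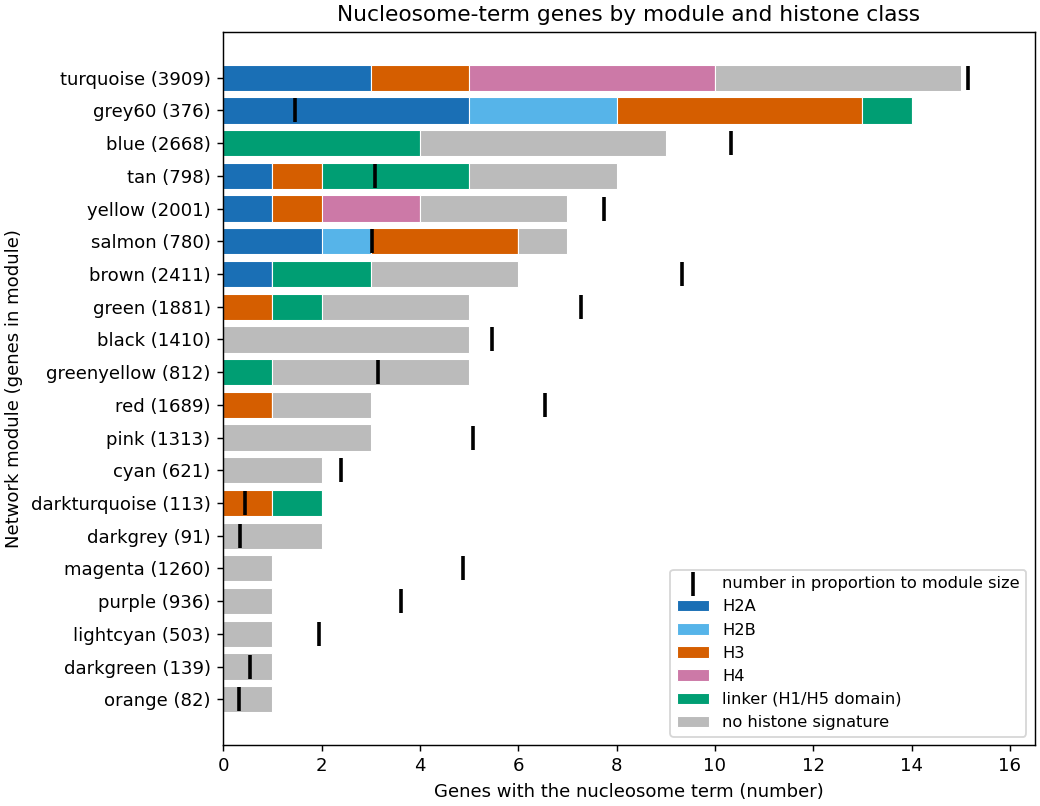
Number of genes with the nucleosome term (x axis) in each network module (y axis, with the number of genes in the module), colored by histone class; black ticks mark the number in proportion to module size. Grey60 holds 14 genes where 1.46 would be in proportion, and the H4 genes are in turquoise and yellow.

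Edges among the core histone genes were listed more often than among all genes. Of the 4753 pairs of the 98 genes, 866 (18.2%) had a listed edge, against 13.6% of all gene pairs. Core histone genes were linked in 362 of 741 pairs (48.9%) with a median weight of 0.0613. Linker-domain genes were linked in 21 of 78 pairs (26.9%), and genes without a signature in 133 of 1035 pairs (12.9%), close to the share of all gene pairs. Between the groups, 64 of 507 pairs (12.6%) of a core histone and a linker-domain gene were listed, and 182 of 1794 pairs (10.1%) of a core histone gene and a gene without a signature. Linker-domain genes and genes without a signature were linked in 104 of 598 pairs (17.4%).

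The 7 H4 genes, whose protein pairs with H3 at the center of the nucleosome, formed a complete set. All 21 of their pairs were listed, with weights between 0.0991 and 0.219 and a median of 0.145. The heaviest edge between any of the 98 genes joined the H4 genes Sevir.3G216725 and Sevir.7G224400 (0.219), above 99.3% of all listed weights in the network. Both genes had many heavier edges to genes outside the 98, since this edge ranked 177th for Sevir.3G216725 and 110th for Sevir.7G224400. Sevir.3G216725 was on 8 of the 10 heaviest edges between the 98 genes. Its next partners among them were the H4 genes Sevir.9G567500 (0.215), Sevir.5G378125 (0.209) and Sevir.6G135300 (0.193). The H2A gene Sevir.9G453900 (0.187) and the H3 gene Sevir.7G103200 (0.167), both in turquoise, also stood among the 10, and every one of these 10 edges had an H4 gene. The yellow H4 gene Sevir.9G345801 was linked to 44 of the 98 genes and to 29 core histone genes. H4 genes had edges to large parts of the network, with 7254 to 8620 edges each (28.7% to 34.1% of all genes). They were linked in 94.6% of their pairs with turquoise genes of any kind. Edges among H4 genes and within turquoise are therefore read against that share, and all 45 pairs of the 10 turquoise core histone genes were listed where 72.0% of all turquoise pairs were.

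**Figure D2:**
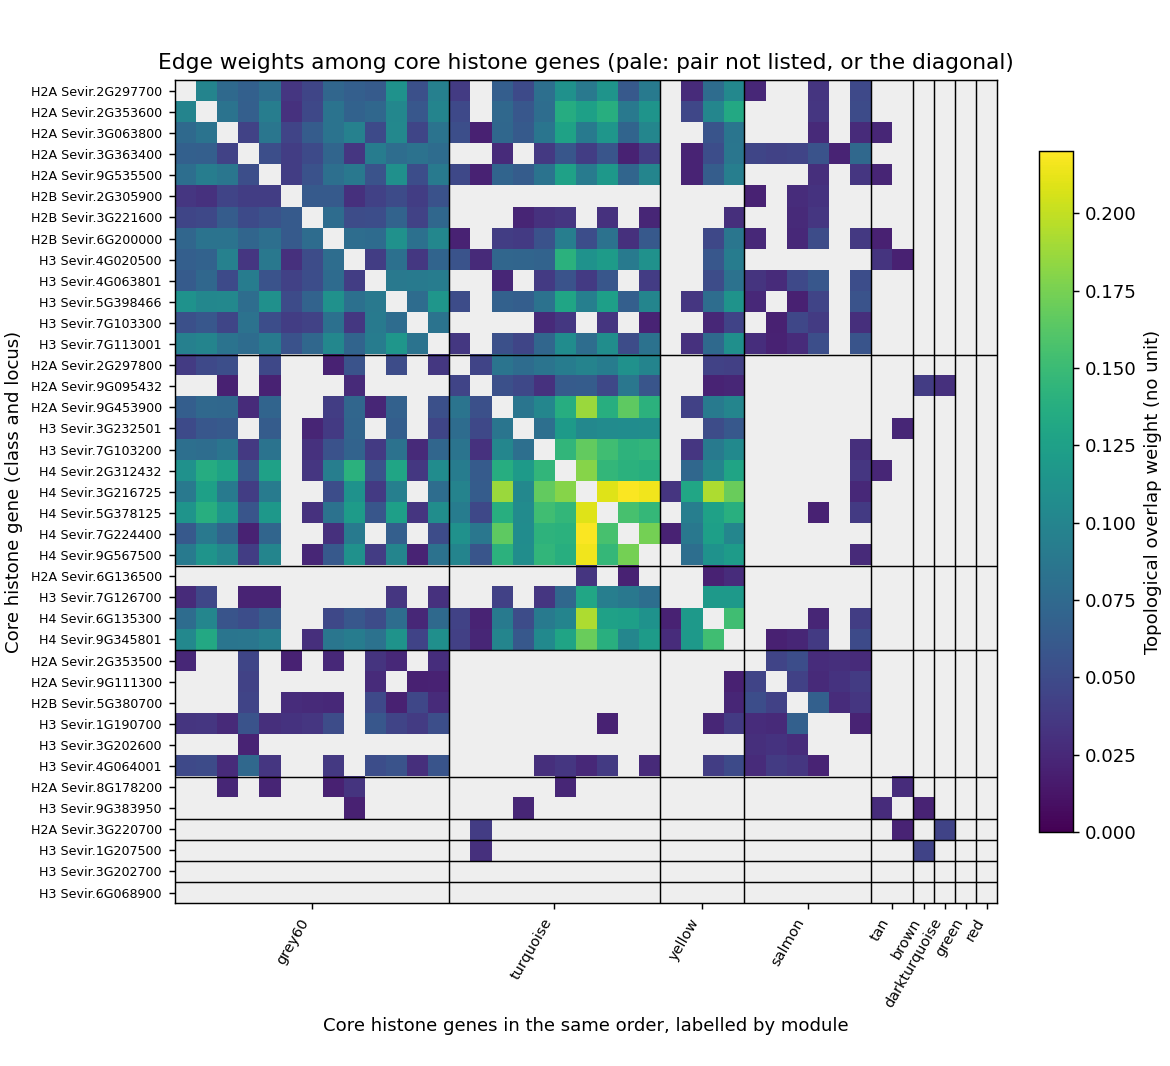
Topological overlap weight (color scale) for each pair of the 39 core histone genes, ordered by module and then class along both axes; pale cells are pairs below the listed minimum. The grey60 block and the turquoise block are filled, weights among H4 genes reach 0.219, and the H3 genes of green and red have no filled cell.

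In grey60, the 5 H2A, 3 H2B and 5 H3 genes were linked to each other in all 78 pairs, against 57.2% of all grey60 pairs. These 13 genes were linked in 78.3% of their pairs with grey60 genes of any kind. Their median weight was 0.0724, against 0.0378 for all listed pairs of the module. They were well connected within it. By intramodular connectivity, the sum of a gene's weights to genes of its own module, 11 of the 13 were above the median of grey60 and 10 were above its 75th percentile. The H3 gene Sevir.5G398466 ranked 10th of 376 (97.6th percentile) and the H3 gene Sevir.7G113001 ranked 13th (96.8th percentile). The H2A gene Sevir.2G353600, whose best Arabidopsis match is AT4G27230, a canonical H2A, ranked 23rd (94.1st percentile). The H2B gene Sevir.2G305900 (27.1st percentile) was the lowest of the 13 and the one without an edge to any H4 gene. The other grey60 gene, Sevir.6G160800, cited the linker domain with a best match to AT1G14900, an Arabidopsis HMGA protein that binds AT-rich DNA. It ranked lower in grey60 (27.4th percentile). It was linked to all 13 grey60 core genes and to 23 core histone genes in all, the most of any linker-domain gene. Grey60 genes outside the 98 were linked in 77.8% of pairs with the grey60 core genes, and to a median of 22 core histone genes.

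The H4 genes lay outside grey60 but were linked to it. Of the 91 pairs of a grey60 core histone gene and an H4 gene, 78 (85.7%) were listed, with a median weight of 0.0844, and H4 genes were linked to 74.5% of all grey60 genes. The salmon core histone genes were linked to grey60 core genes in 42 of 78 pairs (53.8%, median weight 0.0343), where the grey60 core genes were linked to 11.1% of all salmon genes. They were linked to H4 genes in 11 of 42 pairs (26.2%, median 0.0262), where H4 genes were linked to 4.36% of all salmon genes. Among themselves they were linked in 13 of 15 pairs, against 61.0% of all salmon pairs.

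Links among core histone genes were not confined to pairs of one class. Within core classes 92 of 210 pairs (43.8%) were listed, and between classes 270 of 531 (50.8%). H2A and H4 genes, which do not share a class or, in most cases, a module, were linked in 62 of 91 pairs (68.1%), and H3 and H4 genes in 62 of 105 (59.0%). H2A genes were linked to H3 genes in 81 of 195 pairs (41.5%), to H2B genes in 23 of 52 (44.2%) and to each other in 31 of 78 (39.7%). H2B genes were linked to H3 genes in 30 of 60 pairs, to H4 genes in 12 of 28 (42.9%), and to each other in all 6. H3 genes were linked to each other in 34 of 105 pairs (32.4%).

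Links to core histone genes were then set against the links each gene had in all. Of the 39 core histone genes, 36 were linked to a larger share of the other core histone genes than of all network genes. The median share was 57.9% of core histone genes (0 to 76.3%), against 11.3% of all genes (3.44% to 34.1%). By class, the median share of core histone genes was 50.0% for H2A, 46.1% for H2B, 55.3% for H3 and 68.4% for H4 genes. The median share of all genes also differed by class, at 10.5% for H2A, 6.60% for H2B, 7.56% for H3 and 29.6% for H4 genes. The 3 exceptions were the H3 genes Sevir.3G202700 in green and Sevir.6G068900 in red, with no edge to a core histone gene, and the H2A gene Sevir.3G220700 in brown, with 3. Few links were also found for the H3 gene Sevir.1G207500 in darkturquoise, with 2, and for the H2A gene Sevir.6G136500 in yellow, the H3 gene Sevir.3G202600 in salmon and the H3 gene Sevir.9G383950 in tan, with 4 each, whereas the yellow H3 gene Sevir.7G126700 had 15. Of linker-domain genes 5 of 13, and of genes without a signature 12 of 46, exceeded their own share of all genes. The single heaviest partner of a core histone gene was in no case another of the 98 genes (0 of 39). By number alone such a partner would be rare, since the 98 genes are few among 25298. For 18 of the 39 a core histone gene was among their 10 heaviest partners, a count that was not made for other genes.

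**Figure D3:**
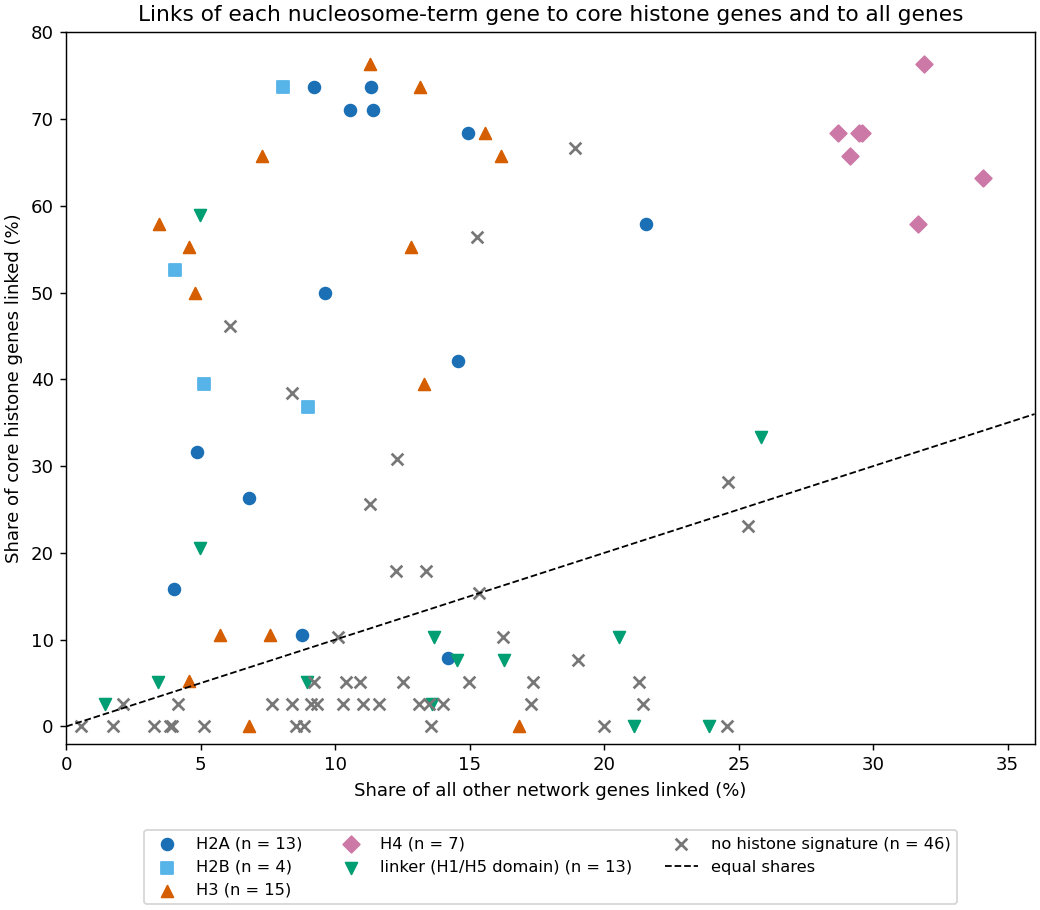
Share of core histone genes linked (y axis, %) against the share of all other network genes linked (x axis, %) for each of the 98 genes, with symbols for histone class and a dashed line of equal shares. Of the 39 core histone genes 36 lie above the line, while 34 of the 46 genes without a signature lie on or below it.

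For genes whose cited Arabidopsis match is a known variant, links to core histone genes were set against links to all genes. Sevir.1G190700, matched to the replication-dependent H3.1 gene AT1G09200, was in salmon and linked to 50.0% of the other core histone genes, against 4.80% of all genes. Sevir.1G207500, matched to the replacement H3.3 gene AT4G40030, was in darkturquoise and linked to 5.26%, against 4.57% of all genes. Sevir.8G178200, matched to the H2A.Z gene AT3G54560, was in tan and linked to 15.8%, against 3.99%. Sevir.9G111300, matched to the H2A.X gene AT1G54690 of the DNA damage response, was in salmon and linked to 26.3%, against 6.80%. Sevir.2G297800, matched to the H2A.W gene AT5G59870 of heterochromatin, was in turquoise and linked to 50.0%, against 9.61%. The modules differ in this respect. Core histone genes were linked in 33.8% of their pairs with turquoise genes, 13.8% with salmon, 12.6% with tan and 3.70% with darkturquoise genes. Each match stands for 1 gene, so these values describe the genes and not the variants. Most core histone genes had no cited Arabidopsis match, and their variant is not given.

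Linker-domain genes were spread over 7 modules and were linked to a median of 3 core histone genes. The blue gene Sevir.7G219100, matched to the stress-inducible Arabidopsis linker histone AT2G18050, was linked to 2 core histone genes. Sevir.4G082600 and Sevir.7G196500, also in blue, were linked to none, although they had 5335 and 6046 edges in all. Sevir.4G020400 in brown had high intramodular connectivity (93.8th percentile) and the heaviest edge between a linker-domain and a core histone gene, 0.152 with the H2A gene Sevir.3G220700. Sevir.5G216000 in tan, matched to the telomere repeat binding factor AT1G49950, was linked to 4 core histone genes. Sevir.5G292800 in brown, matched to AT1G17520 of the same Arabidopsis family, was linked to 13.

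Genes without a histone signature were linked to a median of 1 core histone gene, and 11 of the 46 were linked to none. This is near the values of network genes outside the 98, with a median of 2 and 28.8% linked to none. Sevir.2G027800 in darkgrey, matched to the Arabidopsis chromatin remodeler DDM1 (AT5G66750), was linked to no core histone gene among its 5059 edges. The other SNF2-domain genes, Sevir.9G111000 in blue (96.4th percentile) and Sevir.2G446300 in brown, were linked to 0 and 1. Sevir.1G210600 in pink, matched to the nucleosome assembly protein-related gene AT1G18800, was linked to 6, or 15.4% of them, against 15.3% of all genes. Sevir.3G404733 in cyan, which cited a protein kinase domain, was linked to 26 core histone genes, and Sevir.1G032600 in tan, which cited nothing, to 22. Sevir.4G030900, Sevir.5G440500 and Sevir.8G240800, the last with an NB-ARC domain, had no edge to any other of the 98 genes.

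The heaviest edges among genes without a signature lay within black and blue. Sevir.3G064200 and Sevir.9G520300 in black were joined by a weight of 0.159, and Sevir.9G111000 and Sevir.9G156800 in blue by 0.158. Sevir.9G520300 was matched to AT5G42900, the cold-regulated *COR27* gene of Arabidopsis, and was linked to 1 core histone gene, as were Sevir.3G064200 and Sevir.9G156800. The heaviest edge of such a gene with a histone gene was 0.162, between Sevir.4G268200 in turquoise and the H4 gene Sevir.3G216725. In greenyellow, Sevir.9G380900 was at the 99.8th percentile of connectivity and was linked to 3 core histone genes. Sevir.1G118200 in yellow, matched to the ribosomal protein gene AT1G15250, was linked to 23.1% of core histone genes, against 25.3% of all genes. High connectivity in a module thus occurred in genes with few core histone links.

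Over all 98 genes, intramodular connectivity was close to the middle of the modules, with a median at the 51.6th percentile and 50 genes above the median of their module. The median of core histone genes was the 64.5th percentile. The 7 H4 genes were all above the median of their modules (58.5th to 91.2nd percentile), whereas the other 5 core histone genes of turquoise were all below it (7.90th to 49.7th percentile). In salmon, the H3 gene Sevir.4G064001 was at the 10.5th percentile but was linked to 21 core histone genes, more than the H2B gene Sevir.5G380700 at the 59.6th percentile, with 14.

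Neighbouring genes of the nucleosome term were compared by module and by listed edges. Within 10 gene positions of each other on a chromosome there were 14 pairs, of which 3 (21.4%) were listed and 1 shared a module. There were 5 such pairs of the same core class, and 0 of them shared a module. The listed ones were the H2A genes Sevir.2G297700 and Sevir.2G297800 (grey60 and turquoise, weight 0.0380), the H3 genes Sevir.4G063801 and Sevir.4G064001 (grey60 and salmon, 0.0518) and the H3 genes Sevir.7G103200 and Sevir.7G103300 (turquoise and grey60, 0.0265). The adjacent H2A genes Sevir.2G353500 and Sevir.2G353600 and the adjacent H3 genes Sevir.3G202600 and Sevir.3G202700 had no listed edge. Of all 741 pairs of core histone genes, 78 lay within grey60 and 45 within turquoise, the modules with the most core histone genes. Most pairs thus lay in different modules wherever the genes lie, so the 5 pairs do not set neighbours apart. None of the 7 neighbouring pairs of a gene with and a gene without a signature was listed. Wherever they lie, genes without a signature were linked in 10.1% of pairs with core histone genes and 17.4% with linker-domain genes. With only 7 pairs, none listed is near these shares.

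Other genes of chromatin and the cell cycle were compared through 13 GO lists, without the 98 genes themselves. The MCM complex, the helicase that opens DNA at replication origins, had the largest share of pairs with core histone genes, 39.6% over 9 genes, against 13.4% for all other network genes. Microtubule motors (18.8%, 57 genes) and DNA replication initiation (18.3%, 90 genes) were also above that share. The nucleosome assembly term stood at 23.6% over 32 genes, but 6 of these cited a histone or histone-fold signature, and without them it was 16.0% over 26 genes. The broader DNA replication term (11.5%), chromatin remodeling (10.3%), DNA methylation (12.4%) and histone binding (13.0%) were below the share of all genes, and the cytosolic large ribosomal subunit, a housekeeping list, was at 13.4%. For genes without a signature, the MCM complex was the lowest list (7.49%), against 12.0% for all other genes. For core histone genes 5 of the 13 lists were above the share of all other genes, and for genes without a signature 12 of 13. Counted over all 98 genes together, each of the 13 lists exceeded the share of all other genes (12.8%).

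**Figure D4:**
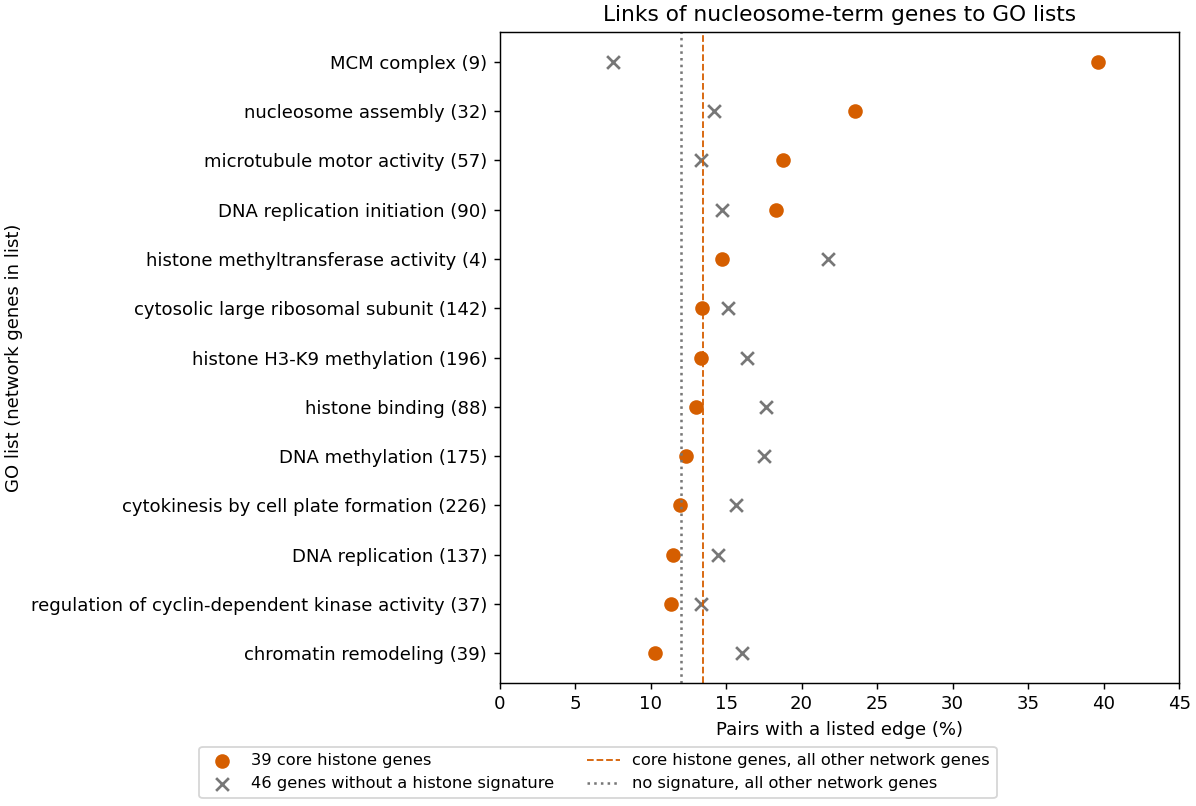
Pairs with a listed edge (x axis, %) between each GO list (y axis, with its number of network genes) and the 39 core histone genes (circles) or the 46 genes without a histone signature (crosses); vertical lines give the same shares for all other network genes. The MCM complex stands at 39.6% for core histone genes and 7.49% for genes without a signature.

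Of the 9 MCM genes, 7 were in grey60. Sevir.3G084700, matched to Arabidopsis MCM6 (AT5G44635), was linked to 25 core histone genes, Sevir.3G210800, matched to MCM3 (AT5G46280), to 24, and Sevir.8G128100, matched to MCM2 (AT1G44900), to 20. These 3 genes were linked to all 7 H4 genes, and the other 4 MCM genes of grey60 to none of them. The 7 MCM genes were linked to the grey60 core histone genes in 82.4% of pairs, against 77.7% for the 355 other genes of grey60 outside the nucleosome term, and to all core histone genes in 46.5%, against 50.9%. Their share with H4 genes was lower, 42.9% against 74.8%.

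Many other genes were linked to the core histone genes. A total of 1993 of the 25200 other network genes (7.91%) were linked to at least 20 of the 39, and 7254 (28.8%) to none. These 1993 made up 62.2% of grey60, 40.7% of cyan, 31.9% of midnightblue and 24.3% of turquoise. The largest number was 30 of 39, reached by 3 grey60 genes. One of them, Sevir.6G007300, was matched to FAS2 (AT5G64630), a subunit of the Arabidopsis chromatin assembly factor CAF-1 that deposits H3 and H4 at replication forks. It was linked to all 13 grey60 core genes and all 7 H4 genes among 2153 edges. The same held for the other genes with 30, Sevir.6G193000 among 4786 edges and Sevir.8G123600 among 3632. Grey60 genes outside the 98 were linked to a median of 22 core histone genes. The genes linked to the most of all 98 (43 each, Sevir.6G138851 and Sevir.5G102200 among them) were turquoise and yellow genes with 8250 to 9327 edges each.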

How the data were processed

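Poly-A RNA-seq reads of inflorescence primordia were quantified by the authors with Salmon 0.13.0 against primary transcripts of the version 2.1 annotation, transformed with a variance stabilizing transformation and joined into a signed WGCNA network by biweight midcorrelation. The weight that the authors deposited for each gene pair is a score (topological overlap). Modules and the GO annotation (GOMAP pipeline) are also theirs. Columns of per-sample values number 0, so depth per sample was not used and no test was possible; differential expression and the DNA samples were not analysed here. The node list used here is smaller than the gene set that was clustered, so a gene outside it is only known not to be listed. Wild-type samples that the authors removed as dissimilar did not enter the network.

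From the edge list, edges and summed weights were computed per gene, within its module and in all, and shares of listed pairs per group. Histone classes came from the domain signatures that the annotation cites, gene positions from the order of locus numbers, and GO terms were used as assigned. The reference gene table matched 0 of the loci, so no sequence is shown. The members, lists and rules were chosen with earlier results of these data known. Genes were named by rule: in modules with at least 5 of the 98 genes the 3 highest and 2 lowest by intramodular connectivity, genes of the 10 heaviest edges, the 10 other genes linked to the most of the 98, genes with no edge to the rest, extremes per class, and the best linked gene per list, 85 genes in all, of which a part is described. Genes with a cited Arabidopsis match, neighbouring genes, MCM genes and Sevir.6G007300 were named after their values were seen. The functions that count edges and classes were checked on simulated data. Alternatives were other weight minimums, subsets of genes, windows and connectivity measures. Computations ran in Python 3.11.15 (pandas 2.3.3, numpy 2.4.6, scipy 1.17.1), and figures were drawn with matplotlib 3.10.9.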

Additional observations from a re-analysis of the deposited data

How the results depend on the processing

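No paired analysis was possible because neither edges nor modules carry replicate numbers; for the same reason no replicate could be left out. Of 33 alternatives over 9 results, 17 kept the value near (within the 95% binomial interval over pairs or, for the median, over genes, and within 1.5 times for counts) and 16 moved it. Pairs and genes are not independent, so this interval is a yardstick and no error. The share of linked pairs of all 98 genes (18.2%) was 10.2% for weights of at least 0.04 and 1.64% for the top 10% of weights, against 7.05% and 1.36% of all gene pairs. It was 16.9% without pairs of the same class, 26.7% for genes that also have the nucleosome assembly term and 16.6% without turquoise genes. With subsets chosen after seeing the data it was 48.9% for core histone genes, 33.7% for genes with any signature, 12.9% for genes without one and 15.4% without grey60 genes. The share among core histone genes (48.9%) was 35.0% and 8.37% at the same higher weights, 34.2% without grey60 genes and 41.3% without H4 genes, alternatives also chosen after seeing the data. The share of pairs within a class, linker-domain genes included (39.2%), was 26.4% for weights of at least 0.04. With turquoise genes alone, 2 of the 13 GO lists exceeded the share of all other genes, in place of 13. Leaving 6 genes with a histone or histone-fold signature out of the nucleosome assembly list (16.0% in place of 23.6%) was chosen after seeing the data. The minimum weight of 0.02 limits every count of unlinked pairs.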

Other observations

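Histone genes were also found outside the nucleosome term. In the network, 34 other genes cited a core histone or histone-fold signature, of which 3 were H2B, 2 were H4 and 29 cited no signature of a single histone class. The 5 H2B and H4 genes carried a narrower nuclear nucleosome term, which none of the 98 genes carried, and 4 of these 5 were in grey60. The H2B genes Sevir.5G104400, Sevir.5G104100 and Sevir.5G213400 were linked to 24, 20 and 18 of the 39 core histone genes. They were linked to 6.49%, 5.64% and 3.30% of all genes. All 3 were in grey60, where genes outside the 98 were linked to a median of 22 core histone genes. The H4 gene Sevir.2G223200 was in grey60, linked to 12 of the 13 grey60 core genes and to all 3 of these H2B genes, but to none of the 7 H4 genes of turquoise and yellow. Grey60 genes outside the 98 were linked in 77.8% of their pairs with the grey60 core genes and 74.2% with the 7 H4 genes. The H4 gene Sevir.1G280300 was in turquoise and linked to all 7. The absence of H4 from grey60 described above therefore holds for genes of the nucleosome term and not for all annotated H4 genes. Likewise, Sevir.5G104100 and Sevir.5G104400, which lie 3 gene positions apart, were linked with a weight of 0.0727 and, unlike the neighbouring pairs of one core class within the term, shared a module (grey60).

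Of the 29 genes without a class signature, 15 cited a further signature beside the general one of the histone fold. Among these were 8 with the signature of the NF-Y transcription factor family and 1 with the core histone domain. A term for transcription factor activity or regulation by RNA polymerase II was carried by 23 of the 29. The term for the general factor TFIID, whose subunits share this fold, was carried by 6, and some genes carried both. Of the 29 genes, 11 had no edge to a core histone gene and 4 had edges to at least 20. One of these 4, Sevir.1G296800 in grey60, cited the core histone domain, carried the nuclear nucleosome term and was linked to 28 core histone genes (71.8%).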
